A study of Homo sapiens with 18 samples.

Results

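Deadenylation, decapping and exosome genes encode the enzymes and adaptors that shorten, decap and degrade messenger RNA. They were chosen by role as 47 named genes, and each was found once by its symbol among the 60649 genes counted in LNCaP cells, a human prostate cancer line that responds to androgen. All 47 passed the low-count filter that left 15390 genes for testing. The cells had been transfected with a pool of siRNAs against UPF1, a pool against RCOR1 or a non-targeting control. They were kept in medium without androgen. At 48 hours after transfection they were given 5 nM R1881, a synthetic androgen, or ethanol as vehicle for 48 hours. The 6 groups of 3 libraries were therefore UPF1 siRNA with R1881, UPF1 siRNA with vehicle, RCOR1 siRNA with R1881, RCOR1 siRNA with vehicle, control siRNA with R1881 and control siRNA with vehicle. By its title, the study addressed what UPF1 and RCOR1 each add to the way these cancer cells respond to androgen. Each target was lowered with a single pool of siRNAs in a single cell line, so effects of a pool on other transcripts and effects of its target cannot be told apart.

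Most human mRNAs are degraded after their poly(A) tail has been shortened. The PAN2-PAN3 pair and the CCR4-NOT complex remove the tail, TOB1 and TOB2 link poly(A)-binding protein to CCR4-NOT, and ZFP36-family proteins bring CCR4-NOT to mRNAs with AU-rich elements. DCP2 then removes the cap with the help of DCP1A, DCP1B, EDC3, EDC4, PATL1 and LSM1, and XRN1 degrades the body in the 5′-to-3′ direction, while the exosome degrades RNA from the 3′ end. UPF1, an RNA helicase best known for nonsense-mediated decay, reaches this machinery by several routes: PNRC2 bridges it to decapping, STAU1 recruits it to mRNAs with double-stranded regions, and SLBP joins it in the decay of histone mRNAs. RCOR1, also called CoREST, is a scaffold of a chromatin corepressor complex that holds the demethylase LSD1.

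The libraries held 10299607 to 17338235 counts. UPF1 itself had 26.8, 26.5 and 25.5 CPM in the UPF1 siRNA, R1881 libraries, against 164, 141 and 143 CPM in the control siRNA, R1881 libraries, and 20.5, 22.0 and 25.9 CPM against 123, 155 and 126 CPM in vehicle (CPM are read counts scaled to library size by TMM). Its level was 17.6% of control in R1881 and 17% in vehicle, and RCOR1 stood at 15.7% and 12.9% of control under its own siRNA. The RCOR1 pool also went with lower UPF1 in R1881 (log2 fold change -0.36, SE 0.107, adjusted p = 0.04). In vehicle the UPF1 value was similar, at -0.32, and was not called (SE 0.107, adjusted p = 0.067). The 9 luminal prostate markers summed to 6210 to 14700 CPM across the groups, while of 14 markers of other cell types TP63, COL1A2, CDH5, CD3E and CHGA were at 0 in all 18 libraries, KRT5, PDGFRB, PECAM1 and PTPRC reached at most 0.694 CPM, CD68 at most 1.11 and KRT14 at most 6.3. COL1A1 (3.25 to 12.5 CPM), COL3A1 (0.351 to 12.8) and SYP, a synaptic vesicle protein used as a neuroendocrine marker (2.02 to 17.8), were present in every library. SYP had 17.8, 17.4 and 17.2 CPM with UPF1 siRNA and R1881, against 4.54, 4.9 and 3.7 CPM with control siRNA and R1881, and was called higher with UPF1 siRNA in both treatments (log2 1.98 in R1881, 2.24 in vehicle), as was COL3A1, while KRT14 was called higher in R1881 (1.61). The sum over all 14 was 30.6 to 32.7 CPM with UPF1 siRNA and R1881 and 29.2 to 36.7 CPM with UPF1 siRNA and vehicle, against 10.3 to 13.6 CPM and 15.4 to 17.8 CPM in the matching control groups, and its part in the results below was not tested. In bulk RNA, fewer cells of a type and less RNA per cell cannot be told apart.

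Libraries differed in their counts for AT-rich genes, and replicates 1 and 2 of UPF1 siRNA in R1881 were the lowest. All tested genes with under 40% GC lay a median of 0.63 and 0.44 log2 units below their 18-library mean in these, against at most 0.32 below it in any other library. The 15 members whose longest transcript has under 40% GC lay a median of 0.40 and 0.36 below it there, whereas in replicate 3 their median lay 0.03 above it. A control siRNA, R1881 library (replicate 1, -0.35) and a control siRNA, vehicle library (replicate 2, -0.21) were low too, so that among members replicate 2 of UPF1 siRNA is not separate from that control library. UPF1 siRNA, vehicle replicate 3 was the highest, at 0.45. The median of the 32 members with at least 40% GC stayed within -0.09 and 0.07 in every library. Single members varied more, TOB1 between -0.72 and 0.67. Some values for UPF1 siRNA in R1881 lost a call without replicates 1 and 2. Where printed, they are given without them too, or the loss is named. A value from replicate 3 alone comes from the same fit and assumes that this library varies like those of the other groups.

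Levels between genes are compared as CPM per kb of exon, averaged over the 18 libraries. TOB1 had the highest level of the set at 64.1 CPM per kb, followed by STAU1 at 56.8, CNOT1, the scaffold of CCR4-NOT, at 51.2, XRN2, the nuclear 5′-to-3′ exonuclease, at 39.3 and PNRC2 at 30.8. At the other end stood ERI1, which trims the 3′ end of histone mRNA, at 0.982 CPM per kb, DCP1B at 1.55, the exosome nuclease DIS3 at 2.11 and its cytoplasmic relative DIS3L2 at 2.45. Core exosome subunits ranged between 3.25 for EXOSC5 and 15.8 for EXOSC6. The cytoplasmic exonuclease XRN1 (10.5) and the decapping enzyme DCP2 (10.4) were in the middle of the order.

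**Figure D1:**
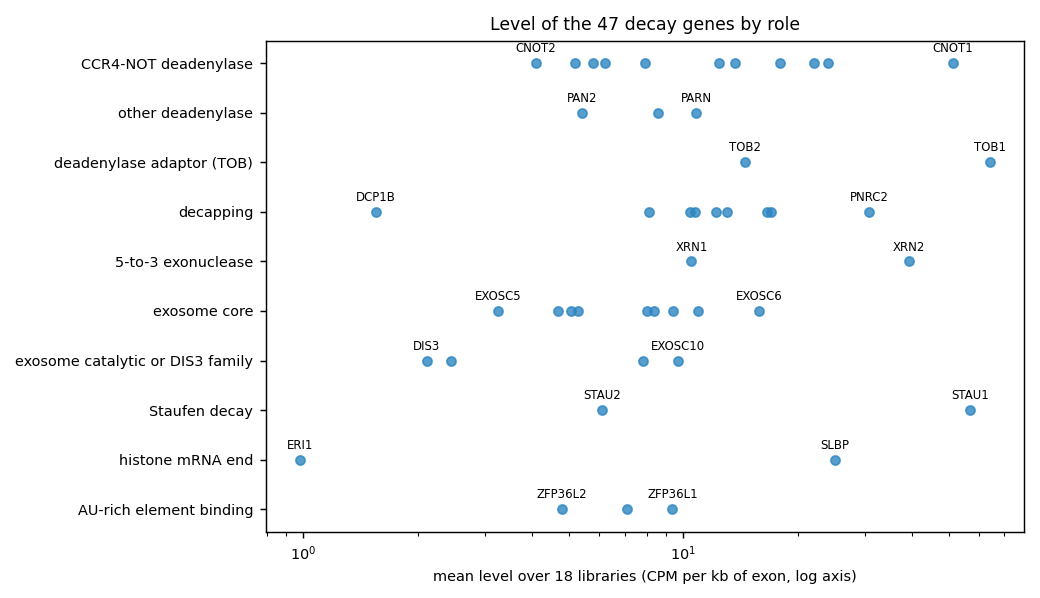
Mean level of each of the 47 genes over 18 libraries, in CPM per kb of exon on a log axis, with 1 row per role and the lowest and highest gene of each role named. TOB1 (64.1), STAU1 (56.8) and CNOT1 (51.2) lie farthest right and ERI1 (0.982) farthest left.

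The promoters of 4 members with large responses are shown because the library values of these genes are given in full below: PNRC2, the member with the largest mean rise under UPF1 siRNA, TOB1, which had the largest mean fall among members called in both treatments, and ZFP36 and DIS3L, which rose and fell most with R1881 under control siRNA. Each runs 5′ to 3′ over the 250 bases before and 50 bases after the start in RefSeq (GRCh38.p14), and capitals mark matches to the searched motifs on either strand. The counts are per gene and do not tell which start is used. The RefSeq starts of PNRC2, ZFP36 and DIS3L lie inside the spans that GENCODE gives these genes. For PNRC2 and DIS3L the whole window does.
PNRC2, chr1:23959578-23959877, plus strand: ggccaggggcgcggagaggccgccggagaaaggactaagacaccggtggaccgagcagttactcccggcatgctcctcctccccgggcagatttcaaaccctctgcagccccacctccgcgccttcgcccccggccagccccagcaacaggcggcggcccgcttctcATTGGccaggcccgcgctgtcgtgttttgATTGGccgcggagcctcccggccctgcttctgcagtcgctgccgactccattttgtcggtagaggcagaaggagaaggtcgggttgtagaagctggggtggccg
TOB1, chr17:50867929-50868228, minus strand: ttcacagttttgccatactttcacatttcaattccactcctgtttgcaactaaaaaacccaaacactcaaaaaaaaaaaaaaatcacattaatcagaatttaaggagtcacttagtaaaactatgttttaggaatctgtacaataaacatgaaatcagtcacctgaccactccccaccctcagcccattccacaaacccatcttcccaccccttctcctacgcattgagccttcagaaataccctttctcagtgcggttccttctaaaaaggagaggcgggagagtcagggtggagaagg
ZFP36, chr19:39406597-39406896, plus strand: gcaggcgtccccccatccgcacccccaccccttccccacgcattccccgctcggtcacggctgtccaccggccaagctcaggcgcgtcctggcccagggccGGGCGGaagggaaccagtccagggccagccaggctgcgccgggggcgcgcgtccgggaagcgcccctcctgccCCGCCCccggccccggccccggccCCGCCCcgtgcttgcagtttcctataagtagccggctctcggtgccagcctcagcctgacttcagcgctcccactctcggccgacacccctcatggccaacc
DIS3L, chr15:66293318-66293617, plus strand: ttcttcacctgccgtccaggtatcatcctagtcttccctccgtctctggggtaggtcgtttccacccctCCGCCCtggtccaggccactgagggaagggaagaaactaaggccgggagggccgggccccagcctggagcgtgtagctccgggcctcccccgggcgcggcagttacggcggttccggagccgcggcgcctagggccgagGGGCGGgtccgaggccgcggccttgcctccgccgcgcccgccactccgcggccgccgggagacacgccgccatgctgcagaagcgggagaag

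The PNRC2 window held 2 CCAAT boxes, 83 and 54 bases before the start. The ZFP36 window held 3 GC boxes (GGGCGG) and the DIS3L window 2, and the TOB1 window, at 41.3% GC, matched none of the 7 motifs. Promoters of 39 of the 47 members were matched in the RefSeq table. GC boxes were in 76.9% of those 39 and in 45.0% of all 35116 promoters, and CCAAT in 35.9% and 34.6%. The androgen receptor core AGAACA matched 2.56% of member promoters (CNOT8 alone) and 14.8% of all. The others searched were the cyclic AMP element TGACGTCA (2.56% of members, 1.85% of all), the AP-1 site TGANTCA (2.56% and 7.71%), the E2F site TTTCCCGC (5.13% and 1.63%) and the serum response core CCATAT (2.56% and 5.62%). No motif contains another. Members were counted with a single promoter each, whereas the 35116 are every entry of the promoter table, without a filter for expression. The shares are thus of unlike sets, and no difference between them was tested. A match describes letters in the window and does not show binding.

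UPF1 siRNA changed single members of most steps of decay, in both directions, and left most of the pathway without a call. In R1881, 7 members were higher and 8 lower than with control siRNA (adjusted p below 0.05 in a quasi-likelihood test, adjusted over all genes), beside 17.6% of all genes higher and 15.7% lower. In vehicle 6 were higher and 10 lower, beside 18.5% and 16% of all genes. These shares are close to the background, and the median log2 fold change of the 47 members was -0.05 in R1881 and -0.04 in vehicle, beside -0.00 and 0.03 over all genes. PNRC2, EXOSC1, EXOSC6 and STAU1 were higher and CNOT10, TOB1, TOB2 and EXOSC9 lower in both treatments, and 24 members were called in neither. Calls shared between treatments were counted for members alone, so the share over all genes is not known. In R1881 the split was 11 higher and 6 lower under scaling by library size alone, and 4 and 8 with DESeq2. From replicate 3 alone 5 calls held, those of PNRC2, TOB1, TOB2, EXOSC6 and ZFP36L2. In vehicle CNOT1, CNOT3, PARN and LSM1 lost their calls without UPF1 siRNA replicate 3.

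**Figure D2:**
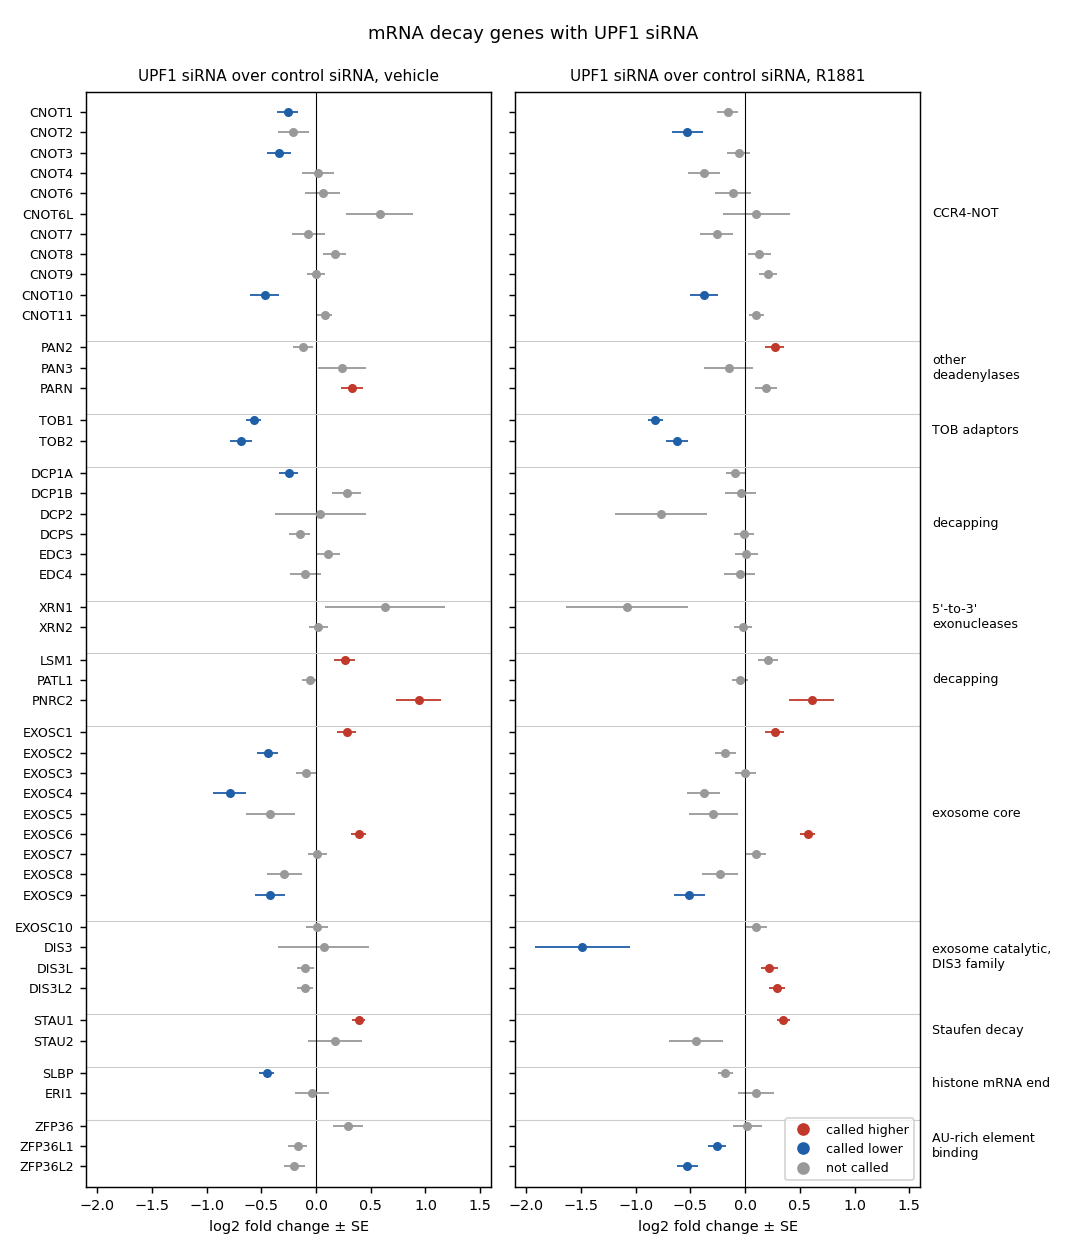
Log2 fold change with UPF1 siRNA over control siRNA for the 47 genes by role, in vehicle (left panel) and R1881 (right panel), with 1 standard error, n = 3 libraries per group; red marks genes called higher, blue lower and grey not called. PNRC2 (0.94 in vehicle, 0.61 in R1881) lies farthest right among the called genes, and the wide bars of XRN1, DIS3 and DCP2 show their spread between replicates.

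Of the 3 members named above as routes between UPF1 and decay, PNRC2 and STAU1 rose in both treatments and SLBP fell in vehicle. They were picked for their known links to UPF1, with earlier results of these data known, and are not a full list of UPF1 partners. PNRC2 had 78.1, 93.3 and 116 CPM in UPF1 siRNA, R1881 libraries, against 46.4, 70.8 and 70.7 CPM in control siRNA, R1881 libraries. In vehicle it had 121, 118 and 144 CPM with UPF1 siRNA, against 76.9, 49.7 and 72.3 CPM with control siRNA. All UPF1 siRNA libraries lay above all control libraries of the same treatment, by 1.53-fold in R1881 (log2 0.61, SE 0.206, adjusted p = 0.032) and 1.92-fold in vehicle (log2 0.94, SE 0.206, adjusted p = 0.0021). In R1881 the value ranged between 0.42 and 1.03 over the alternatives and lost its call without control replicate 1, UPF1 replicate 2 or UPF1 replicate 3 and in the fit of these 2 groups alone. Reads of the processed pseudogene PNRC2P1 could be split with PNRC2.

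STAU1 binds double-stranded stretches in the mRNAs that it directs to UPF1. Its levels were 298, 295 and 281 CPM with UPF1 siRNA and R1881, against 226, 224 and 235 CPM with control siRNA and R1881. With vehicle they were 282, 273 and 276 CPM under UPF1 siRNA, against 199, 226 and 210 CPM under control siRNA. No library of either UPF1 siRNA group fell into the control range, and the log2 fold changes were 0.35 in R1881 (SE 0.0597, adjusted p = 0.00036) and 0.39 in vehicle (SE 0.0597, adjusted p = 0.00011). From replicate 3 alone the R1881 value was 0.26 (adjusted p = 0.13). Its paralog STAU2 was not called (log2 -0.45, SE 0.25 in R1881; 0.17, SE 0.248 in vehicle).

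SLBP, the protein that binds the stem-loop of histone mRNA, had 50, 49.5 and 51.6 CPM with UPF1 siRNA and R1881, against 58.4, 54.8 and 57.7 CPM with control siRNA and R1881. Under vehicle SLBP had 39.1, 41.2 and 43.6 CPM with UPF1 siRNA, against 54.2, 60.5 and 55.0 CPM with control siRNA. The groups did not overlap in either treatment, but only the vehicle difference passed the test (log2 -0.45, SE 0.0681, adjusted p = 8.4e-05); in R1881 it was -0.18 (95% interval -0.32 to -0.03, adjusted p = 0.055). The difference between these 2 responses was 0.28 and was not called (adjusted p = 0.14). The SLBP protein is made mainly in S phase, while the values here are of RNA. Of 18 genes of S phase and mitosis 16 were lower and 1 higher with UPF1 siRNA in R1881. In vehicle 17 were lower (median log2 -1.01 in R1881 and -1.40 in vehicle). The part of cell cycling in the SLBP values was not tested. ERI1 was not called with UPF1 siRNA (0.10 in R1881, -0.04 in vehicle, SE 0.166 and 0.156).

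**Figure D3:**
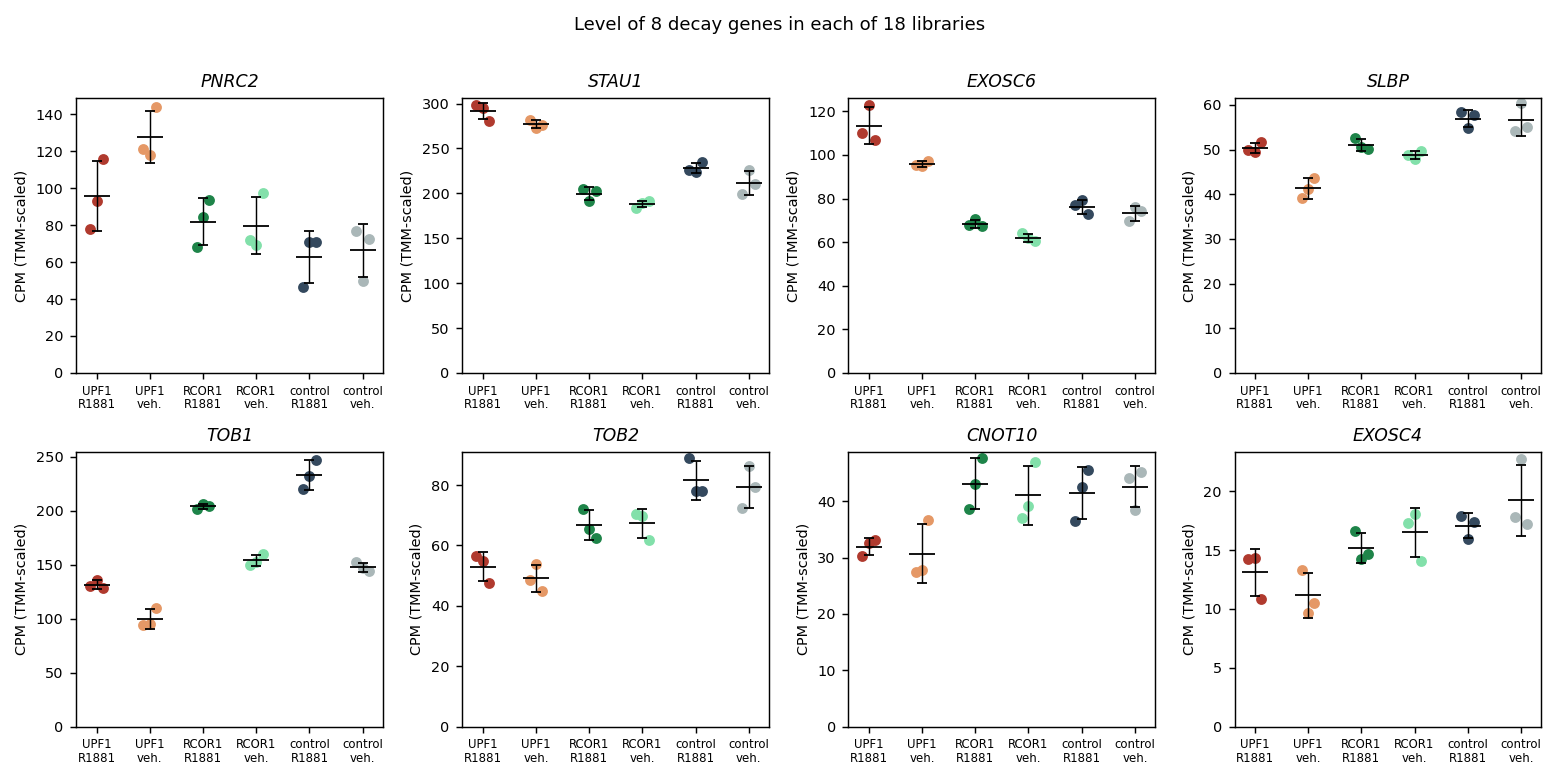
Level of 8 members in each library (points, CPM after TMM scaling), with the group mean and SD (black), n = 3 per group, in the order UPF1, RCOR1 and control siRNA with R1881 left of vehicle. PNRC2, STAU1 and EXOSC6 lie higher and TOB1 and TOB2 lower in both UPF1 siRNA groups than in the control groups.

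The TOB adaptors fell in both treatments. TOB1 had 130, 136 and 128 CPM with UPF1 siRNA and R1881, against 220, 232 and 247 CPM with control siRNA and R1881. The vehicle libraries had 94.3, 94.7 and 110 CPM with UPF1 siRNA, against 152, 147 and 144 CPM with control siRNA. The groups were well separated, and TOB1 stood at 0.565 times control in R1881 (log2 -0.82, SE 0.07, adjusted p = 6.3e-07) and 0.674 times control in vehicle (log2 -0.57, SE 0.07, adjusted p = 1.3e-05). Its antisense gene TOB1-AS1 covers 11.1% of its exons, and whether the counting used strand is not given in the sources used here.

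TOB2 had 56.5, 54.8 and 47.7 CPM with UPF1 siRNA and R1881, against 88.9, 77.9 and 77.9 CPM with control siRNA and R1881. In vehicle its levels were 48.5, 53.8 and 45.0 CPM with UPF1 siRNA, against 72.3, 86.4 and 79.2 CPM with control siRNA. Every UPF1 siRNA library was below every control library, with log2 fold changes of -0.62 in R1881 (SE 0.1, adjusted p = 0.00023) and -0.69 in vehicle (SE 0.1, adjusted p = 6.3e-05). Both TOB genes kept their calls under every alternative run for these comparisons, including replicate 3 of UPF1 siRNA in R1881 alone (TOB1 -0.90, TOB2 -0.81). TOB2 has a pseudogene, TOB2P1, to which reads may have been split.

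Among the 11 CCR4-NOT genes none rose, 2 (18.2%) fell in R1881 and 3 (27.3%) fell in vehicle with UPF1 siRNA, beside 15.7% and 16% of all genes. CNOT10, a subunit of the module that docks on CNOT1, was lower in both treatments. It had 30.2, 32.5 and 33.1 CPM with UPF1 siRNA and R1881, against 36.5, 42.5 and 45.5 CPM with control siRNA and R1881 (log2 -0.38, SE 0.129, adjusted p = 0.034). Its vehicle levels were 27.5, 27.8 and 36.7 CPM with UPF1 siRNA, against 44.1, 38.5 and 45.2 CPM with control siRNA (log2 -0.47, SE 0.13, adjusted p = 0.0097). The groups did not overlap in either treatment, and the R1881 call was lost under 7 of 14 alternatives, replicate 3 alone among them (-0.36), with values between -0.48 and -0.26 over all 14.

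CNOT2, which with CNOT3 forms a docking module of the complex, fell in R1881 and was not called in vehicle (-0.21, 95% interval -0.51 to 0.09). Its levels were 37.5, 44.4 and 43.8 CPM with UPF1 siRNA, against 52.0, 66.9 and 62.5 CPM with control siRNA (log2 -0.53, SE 0.142, adjusted p = 0.0096). With a per-library offset for GC content the sign turned (0.12, adjusted p = 0.63), and from replicate 3 alone the value was -0.50 (adjusted p = 0.12). At 34.1% GC its transcript is the most AT-rich of the set. In vehicle CNOT1 (-0.26, SE 0.0969) and CNOT3 (-0.34, SE 0.107) were lower too, calls lost under 6 and 3 of 13 alternatives. The catalytic deadenylases CNOT6, CNOT6L, CNOT7 and CNOT8 were not called, with values between -0.26 and 0.13 in R1881 and between -0.07 and 0.58 in vehicle. Of the other deadenylases, PAN2 was higher in R1881 (0.27, SE 0.0885), a call lost under 9 of 14 alternatives (0.11 from replicate 3 alone) with overlapping groups. PARN was higher in vehicle (0.33, SE 0.101), a call lost under 5 of 13, and PAN3 was called in neither (-0.15 and 0.24, SE 0.223 and 0.22).

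Of the other decapping genes, LSM1 rose and DCP1A fell, in vehicle. LSM1, a subunit of the ring that binds shortened tails, was higher in vehicle (0.26, SE 0.0932, adjusted p = 0.042), a call lost under 10 of 13 alternatives. DCP1A, the activator to which PNRC2 binds, was lower in vehicle (-0.25, SE 0.0875, adjusted p = 0.034), a call lost under 6 of 13. DCPS, EDC3, EDC4, PATL1 and DCP1B had values between -0.05 and 0.01 in R1881 and between -0.15 and 0.28 in vehicle, without a call.

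The widest spread between replicates in the set was that of XRN1, described here after its values were seen. It had 29, 40 and 150 CPM with UPF1 siRNA and R1881, against 85.5, 197 and 178 CPM with control siRNA and R1881. With vehicle XRN1 had 101, 196 and 196 CPM with UPF1 siRNA, against 157, 61.7 and 98.5 CPM with control siRNA. The groups overlapped in both treatments, and neither difference was called (log2 -1.08, 95% interval -2.26 to 0.10, adjusted p = 0.15 in R1881; 0.63, -0.53 to 1.80, adjusted p = 0.41 in vehicle). The R1881 value was -0.06 from UPF1 siRNA replicate 3 alone and -2.15 without that replicate (adjusted p = 0.0045), and it was called without the low-count filter (-1.08, adjusted p = 0.00051).

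DCP2, described for the same reason, had 41.7, 48.6 and 125 CPM with UPF1 siRNA and R1881, against 72.7, 144 and 149 CPM with control siRNA and R1881. Its log2 fold change was -0.77 (95% interval -1.65 to 0.12, adjusted p = 0.17), 0.01 from replicate 3 alone and -1.43 without it (adjusted p = 0.011), and it was called without the low-count filter (-0.76, adjusted p = 0.0033). XRN1 and DCP2 both have 37.3% GC, and their pooled within-group SDs were 0.76 and 0.58 log2 units, beside a median of 0.12 for the members and 0.20 for all genes. XRN2 was much steadier, at 144, 133 and 145 CPM with UPF1 siRNA and R1881, against 127, 149 and 153 CPM with control siRNA and R1881. Its difference lay between -0.20 and 0.16 (95% interval) in R1881 and between -0.16 and 0.20 in vehicle.

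Core exosome subunits moved apart from each other. EXOSC6 rose, with 110, 123 and 107 CPM with UPF1 siRNA and R1881, against 77.0, 79.1 and 72.8 CPM with control siRNA and R1881. In vehicle it had 95.4, 94.9 and 97.4 CPM with UPF1 siRNA, against 69.5, 76.3 and 74.1 CPM with control siRNA. The groups were clearly separate, at 1.49-fold in R1881 (log2 0.57, SE 0.0693, adjusted p = 1.7e-05) and 1.31-fold in vehicle (log2 0.39, SE 0.0692, adjusted p = 0.0004), and the call held under every alternative run for both. EXOSC1, a cap subunit, was higher by 0.27 in R1881 and 0.28 in vehicle (SE 0.0892 in each), calls that were lost under 9 of 14 (0.26 from replicate 3 alone) and 11 of 13 alternatives.

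EXOSC9, a subunit of the exosome ring, fell in both treatments. It had 17.9, 17.1 and 20.9 CPM with UPF1 siRNA and R1881, against 24.9, 26.3 and 28.4 CPM with control siRNA and R1881 (log2 -0.51, SE 0.14, adjusted p = 0.011). Vehicle levels of EXOSC9 were 15.5, 20.0 and 22.2 CPM with UPF1 siRNA, against 29.2, 23.7 and 24.2 CPM with control siRNA (log2 -0.42, SE 0.14, adjusted p = 0.028). The groups did not overlap, but the R1881 value was -0.08 with the GC offset and -0.38 from replicate 3 alone (adjusted p = 0.24), without a call in either. The vehicle call was lost under 3 of 13 alternatives. CCNA2, one of the S phase and mitosis genes above, overlaps 5.39% of the EXOSC9 exons on the opposite strand.

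EXOSC4, another ring subunit, had 13.3, 9.64 and 10.5 CPM with UPF1 siRNA and vehicle, against 17.8, 22.7 and 17.2 CPM with control siRNA and vehicle. It was lower there with no overlap (log2 -0.79, SE 0.152, adjusted p = 0.00076). In R1881 its levels were 14.2, 14.3 and 10.8 CPM with UPF1 siRNA, against 17.9, 15.9 and 17.4 CPM with control siRNA, and the difference of -0.38 was not called (95% interval -0.70 to -0.06, adjusted p = 0.064). A gene on the opposite strand covers 19.5% of its exons. EXOSC2 was lower in vehicle (-0.44, SE 0.0959) and the remaining core subunits EXOSC3, EXOSC5, EXOSC7 and EXOSC8 were not called in either treatment.

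DIS3, the catalytic subunit of the nuclear exosome, had 5.75, 7.84 and 17.2 CPM with UPF1 siRNA and R1881, against 17.4, 31.8 and 36.1 CPM with control siRNA and R1881. The groups came close without overlapping, and the log2 fold change of -1.49 (SE 0.434, adjusted p = 0.015) was the lowest of the set. It was -0.75 from replicate 3 alone and -1.22 (adjusted p = 0.00093) with the GC offset. The call was lost under 4 of 14 alternatives: without UPF1 siRNA replicate 1, without replicate 2, without both, and without control replicate 3. In vehicle DIS3 had 13.3, 24.7 and 31.8 CPM with UPF1 siRNA, against 29.4, 15.8 and 21.3 CPM with control siRNA, and the difference was 0.07 (95% interval -0.81 to 0.95). Its exons share 10.9% of their length with BORA on the opposite strand. DIS3L2 (0.29, SE 0.0727) and DIS3L (0.22, SE 0.078) were higher in R1881, calls lost under 3 and 12 of 14 alternatives (0.23 and 0.14 from replicate 3 alone), and EXOSC10, the other nuclear nuclease, was not called (0.10 and 0.01).

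**Figure D4:**
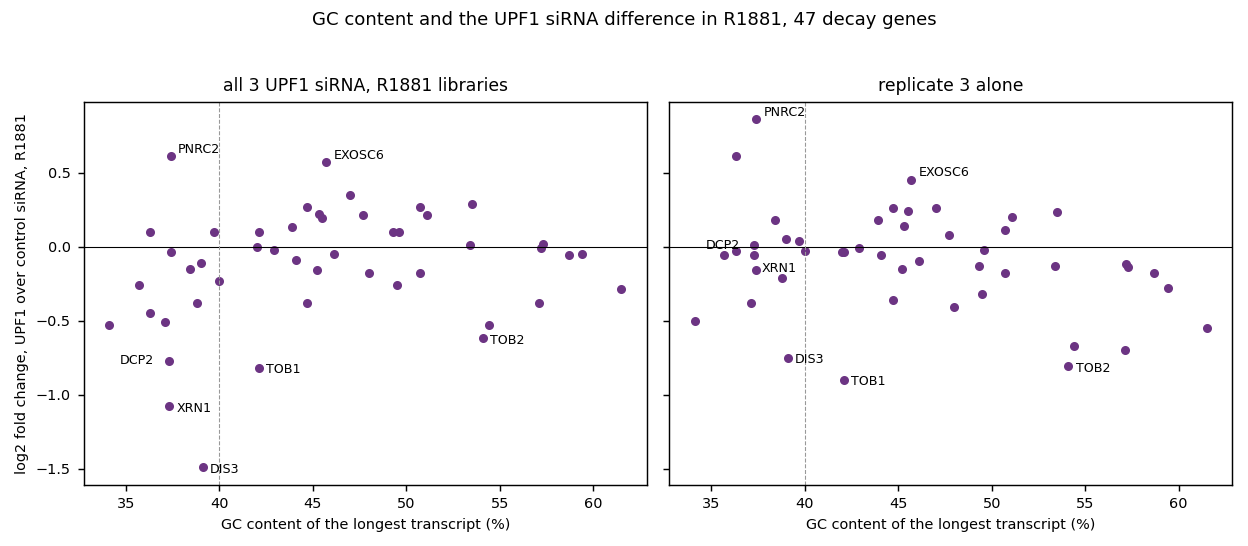
GC content of the longest transcript (percent) against the log2 fold change with UPF1 siRNA over control siRNA in R1881 for 47 genes, from all 3 UPF1 siRNA libraries (left panel) and from replicate 3 alone (right panel), with the 40% line dashed. XRN1, DIS3 and DCP2 stand at -1.08, -1.49 and -0.77 on the left and at -0.06, -0.75 and 0.01 on the right, while TOB1, TOB2, PNRC2 and EXOSC6 keep their side of 0.

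Across the 47 members, Spearman's rho between GC content and the UPF1 siRNA difference was 0.22 in R1881 and -0.32 in vehicle, as a description over genes that share libraries. Members under 40% GC had a median log2 fold change of -0.26 in R1881 and 0.06 in vehicle. Those at or above 40% GC had medians of -0.01 and -0.10. The sign for AT-rich members thus differed between the treatments along with the low libraries named above, and the part of library composition was not tested beyond the values given with the offset and without those libraries.

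Of the AU-rich element binding proteins, ZFP36L2 fell with UPF1 siRNA in R1881. It had 13.0, 15.3 and 12.7 CPM with UPF1 siRNA, against 19.5, 20.7 and 18.9 CPM with control siRNA (log2 -0.53, SE 0.0974, adjusted p = 0.00069), with no overlap and with the call kept under every alternative run. In vehicle its difference was -0.20 (95% interval -0.40 to 0.00). ZFP36L1 was lower in R1881 (-0.26, SE 0.0843), a call lost under 10 of 14 alternatives (-0.32 from replicate 3 alone), and ZFP36, also known as tristetraprolin, was not called (0.02 and 0.29, SE 0.133 and 0.139).

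RCOR1 siRNA changed fewer members. In R1881 3 were higher and 4 lower than with control siRNA, beside 5.06% and 7.33% of all genes. In R1881 the split was 3 and 2 under DESeq2's size factors or library size alone. In vehicle none was higher and 4 were lower, beside 5.31% and 6.21%; 1 was higher at an unadjusted p below 0.05, and none with DESeq2. With the GC offset 1 was higher and 9 lower, the higher one being PNRC2 (0.32, adjusted p = 0.015). CNOT11, which with CNOT10 forms a module of CCR4-NOT, was lower in both, at 58.0, 55.2 and 52.6 CPM with RCOR1 siRNA and R1881, against 74.3, 70.7 and 73.3 CPM with control siRNA and R1881 (log2 -0.40, SE 0.0701, adjusted p = 0.0015), and at -0.28 in vehicle (SE 0.0699, adjusted p = 0.017), calls lost under 2 and 6 of 13 alternatives. ZFP36L2 was lower in both as well (-0.34 in R1881 and -0.37 in vehicle), calls lost under 10 and 7 of 13 alternatives.

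The largest RCOR1 siRNA differences were in R1881. ZFP36 had 10.8, 11.2 and 10.7 CPM with RCOR1 siRNA, against 22.5, 19.7 and 17.6 CPM with control siRNA, with no overlap (log2 -0.87, SE 0.138, adjusted p = 0.00065). DIS3L, a cytoplasmic exosome nuclease, had 40.7, 43.5 and 45.4 CPM with RCOR1 siRNA, against 27.2, 29.1 and 28.6 CPM with control siRNA, again with no overlap (log2 0.61, SE 0.078, adjusted p = 0.0001). Both calls held under every alternative run. PAN2 (0.35) and DCP1A (0.31) were also higher, calls lost under 5 and 6 of 13 alternatives, and STAU1 was lower (-0.19, adjusted p = 0.046), the last lost under 12 of 13 alternatives. In vehicle CNOT8, a catalytic deadenylase, had 39.3, 33.0 and 41.4 CPM with RCOR1 siRNA, against 52.7, 49.7 and 57.0 CPM with control siRNA (log2 -0.49, SE 0.105, adjusted p = 0.0065), and EXOSC6 was lower by a small margin (-0.24, adjusted p = 0.036), a call lost under 11 of 13.

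The UPF1 and RCOR1 pools were also compared with each other. In R1881 11 members were higher and 10 lower with UPF1 siRNA than with RCOR1 siRNA, beside 21.8% and 18.8% of all genes, and in vehicle 7 were higher and 11 lower, beside 18.2% and 14.9%. With DESeq2's size factors the split in R1881 was 8 and 12. CNOT8, CNOT11, PARN, EXOSC1, EXOSC6 and STAU1 were higher and CNOT10, TOB1, TOB2, DCP1A, EXOSC2 and EXOSC9 lower in both treatments. Here too, shared calls were counted for members alone. EXOSC1 lost its calls under 10 of 14 alternatives in R1881 and 11 of 13 in vehicle, and PARN under 6 in each. In R1881 EXOSC9 was at -0.03 with the GC offset, and CNOT8, CNOT10, CNOT11, PARN, DCP1A, EXOSC1 and EXOSC9 were not called from UPF1 siRNA replicate 3 alone (highest adjusted p = 0.32). EXOSC6 had 110, 123 and 107 CPM with UPF1 siRNA and R1881, against 67.7, 70.5 and 67.2 CPM with RCOR1 siRNA and R1881 (log2 0.73, SE 0.0695, adjusted p = 1.2e-06). STAU1 differed by 0.54 in R1881 and 0.56 in vehicle (SE 0.0598 in each), and TOB1 by -0.63 in both treatments (SE 0.0699 and 0.07). The largest difference between the pools was that of DIS3 in R1881, at -1.56. It had 5.75, 7.84 and 17.2 CPM with UPF1 siRNA, against 19.9, 38.2 and 31.3 CPM with RCOR1 siRNA. DIS3 lost its call under 2 of 14 alternatives, replicate 3 alone among them, with values between -2.13 and -0.83. CNOT2 was lower in R1881 (-0.53, but 0.26 with the GC offset), and it was not called from UPF1 siRNA replicate 3 alone. EXOSC4 was lower in vehicle (-0.56), with 17.3, 18.1 and 14.1 CPM under RCOR1 siRNA.

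Several of these differences come with RCOR1 siRNA values that lay on the other side of control. STAU1 had 205, 191 and 203 CPM with RCOR1 siRNA and R1881, and EXOSC6 had 64.1, 61.7 and 60.5 CPM with RCOR1 siRNA and vehicle, both below the control libraries. CNOT8 was higher with UPF1 siRNA than with RCOR1 siRNA (0.38 in R1881, 0.66 in vehicle) while its own difference from control was not called with UPF1 siRNA (0.13 and 0.17). PNRC2 separated the pools in vehicle (0.68, SE 0.205, adjusted p = 0.018) and not in R1881 (0.22, 95% interval -0.21 to 0.66). ZFP36 had 21.8, 20.4 and 18.5 CPM with UPF1 siRNA and R1881, against 10.8, 11.2 and 10.7 CPM with RCOR1 siRNA and R1881 (log2 0.89, SE 0.137, adjusted p = 0.00011).

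R1881 raised 5 members and lowered 6 relative to vehicle under control siRNA, beside 20.1% and 17.6% of all genes. TOB1, EDC3, LSM1, EXOSC3 and ZFP36 were higher, and PAN2, DCPS, EXOSC2, DIS3L, ERI1 and ZFP36L1 lower. Under UPF1 siRNA 10 were higher and 9 lower, beside 21.6% and 20%, and under RCOR1 siRNA 4 were higher and 3 lower, beside 16.3% and 14.9%. TOB1 and EXOSC3 rose and DCPS, DIS3L and ZFP36L1 fell in all 3 siRNA arms. The share of all genes called alike in all 3 arms was not counted. Under scaling by library size alone, which moved the median of all genes by -0.22 with control siRNA, 3 members were higher and 17 lower in that arm, 4 and 13 with UPF1 siRNA, and 2 and 8 with RCOR1 siRNA. With UPF1 siRNA the GC offset gave 15 and 6, and leaving out R1881 replicates 1 and 2 gave 3 and 4.

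ZFP36, an immediate-early gene in many cells, had 22.5, 19.7 and 17.6 CPM in control siRNA, R1881 libraries, against 9.28, 12.3 and 11.0 CPM in control siRNA, vehicle libraries (log2 0.88, SE 0.137, adjusted p = 8.7e-05). With UPF1 siRNA it had 21.8, 20.4 and 18.5 CPM in R1881, against 16.1, 12.3 and 11.3 CPM in vehicle (log2 0.61, SE 0.135, adjusted p = 0.0019), and from R1881 replicate 3 alone the ZFP36 difference was 0.45 (adjusted p = 0.18). With RCOR1 siRNA it had 10.8, 11.2 and 10.7 CPM in R1881, against 10.1, 10.9 and 9.96 CPM in vehicle, and the groups overlapped (log2 0.08, 95% interval -0.22 to 0.38). The response with RCOR1 siRNA minus that with control siRNA was -0.80 (95% interval -1.22 to -0.38) and did not pass the test (adjusted p = 0.078).

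Its relative ZFP36L1 went the other way. It had 45.6, 39.6 and 38.9 CPM with R1881 and control siRNA, against 56.6, 66.5 and 62.3 CPM with vehicle and control siRNA (log2 -0.58, SE 0.0838, adjusted p = 4.1e-05), with no overlap. The log2 fold changes were -0.67 with UPF1 siRNA and -0.68 with RCOR1 siRNA (SE 0.0841 in each).

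Under control siRNA DIS3L fell most with R1881. It had 27.2, 29.1 and 28.6 CPM in control siRNA, R1881 libraries, against 50.8, 49.6 and 52.9 CPM in control siRNA, vehicle libraries (log2 -0.85, SE 0.0779, adjusted p = 2.7e-07). With UPF1 siRNA it had 35.1, 31.6 and 32.0 CPM in R1881, against 49.6, 43.9 and 49.4 CPM in vehicle (log2 -0.53, SE 0.0772, adjusted p = 4.3e-05). With RCOR1 siRNA it had 40.7, 43.5 and 45.4 CPM in R1881, against 50.8, 55.7 and 51.2 CPM in vehicle (log2 -0.28, SE 0.0767, adjusted p = 0.01). The vehicle levels of the 3 arms lay close together and the R1881 levels did not overlap between the RCOR1 siRNA arm and the others.

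The response of DIS3L with RCOR1 siRNA was 0.57 log2 units above that with control siRNA (95% interval 0.34 to 0.80, adjusted p = 0.021). It was the only member called for an interaction, beside 0.227% of all genes called higher and 0.539% called lower. The value ranged between 0.53 and 0.62 over 19 alternatives and lost its call under 8 of them. The interaction with UPF1 siRNA was 0.32 and was not called (95% interval 0.09 to 0.55, adjusted p = 0.14). For that interaction no member was called in the edgeR fit of all libraries or with DESeq2, beside 1.35% of all genes called higher and 1.37% lower, and 8 members had an unadjusted p below 0.05. DIS3L2 came nearest, at 0.39 (95% interval 0.17 to 0.61, adjusted p = 0.056). DIS3L and DIS3L2 were called for it under library size alone, DIS3L2 with at least 50 counts in 3 libraries, XRN1 and DIS3 without the low-count filter, and PAN2 and DIS3 with the GC offset. Without control siRNA, R1881 replicate 1, PAN2 and DIS3L2 were called, and without UPF1 siRNA, R1881 replicate 3, XRN1, DIS3 and DIS3L2.

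Among members called with R1881 under UPF1 siRNA, the lowest values were those of DIS3 and PAN3. XRN1 was at -1.18 there and was not called in the fit of all libraries. PAN3, the regulatory partner of the deadenylase PAN2, had 35.7, 35.5 and 52.8 CPM with UPF1 siRNA and R1881, against 69.1, 79.2 and 87.8 CPM with UPF1 siRNA and vehicle (log2 -0.93, SE 0.223, adjusted p = 0.0034), with no overlap. DIS3 was at -1.20 (SE 0.434, adjusted p = 0.036), with overlapping groups. From R1881 replicate 3 alone the values were -0.61 for PAN3 and -0.46 for DIS3, neither called (adjusted p = 0.18 and 0.61).

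**Figure D5:**
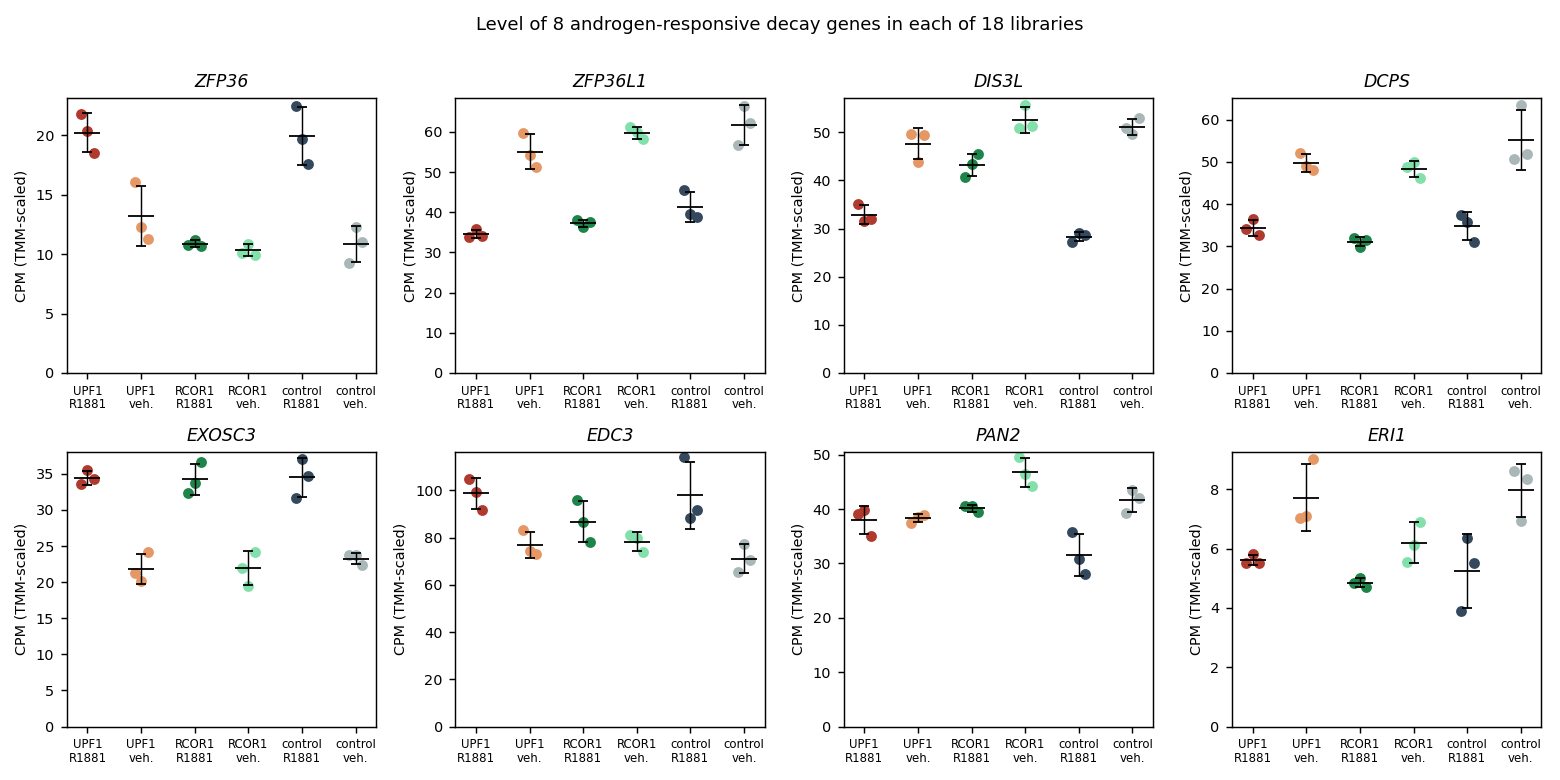
Level of 8 members called with R1881 under control siRNA, in each library (points, CPM after TMM scaling), with the group mean and SD (black), n = 3 per group, in the order UPF1, RCOR1 and control siRNA with R1881 left of vehicle. DIS3L, DCPS and ZFP36L1 lie lower and EXOSC3 higher with R1881 in all 3 arms, while ZFP36 with RCOR1 siRNA stays at 9.96 to 11.2 CPM in both treatments.

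TOB1 rose in each arm, by 0.66 with control siRNA (SE 0.0698, adjusted p = 1.4e-06) and by 0.40 with UPF1 siRNA and with RCOR1 siRNA (SE 0.0699 and 0.0696). The libraries with UPF1 siRNA and R1881 (128 to 136 CPM) lay below those with control siRNA and vehicle (144 to 152 CPM). The interactions of -0.25 in both arms were not called (adjusted p = 0.18 and 0.35). EXOSC3, a cap subunit of the exosome, had 31.7, 37.1 and 34.7 CPM with R1881 and control siRNA, against 23.7, 23.7 and 22.4 CPM with vehicle and control siRNA (log2 0.57, SE 0.0959, adjusted p = 0.00018). It rose by 0.66 with UPF1 siRNA and 0.65 with RCOR1 siRNA, and its R1881 calls held under every alternative run in all 3 arms. It has 2 processed pseudogenes that may share reads.

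DCPS, which clears the cap left after 3′-to-5′ decay, had 37.5, 35.7 and 31.1 CPM with R1881 and control siRNA, against 50.6, 63.5 and 51.8 CPM with vehicle and control siRNA (log2 -0.67, SE 0.0947, adjusted p = 3.1e-05). It was lower by similar values with UPF1 siRNA (-0.53) and RCOR1 siRNA (-0.63), with all 3 calls kept under every alternative run. ERI1 had 3.89, 6.36 and 5.51 CPM with R1881 and control siRNA, against 8.61, 6.94 and 8.34 CPM with vehicle and control siRNA (log2 -0.60, SE 0.162, adjusted p = 0.0079). It was lower with UPF1 siRNA too (-0.46, adjusted p = 0.031), a call lost under 7 of 14 alternatives (-0.12 with the GC offset and -0.51 from R1881 replicate 3 alone), and not called with RCOR1 siRNA (-0.35, 95% interval -0.70 to 0.00).

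All 18 genes of S phase and mitosis were lower with R1881 under control siRNA (median log2 -1.44), whereas SLBP was at 0.01 there (95% interval -0.13 to 0.15) and rose by 0.29 with UPF1 siRNA (SE 0.0681, adjusted p = 0.0032; also 0.29 from replicate 3 alone, adjusted p = 0.1). Smaller R1881 responses under control siRNA were those of EDC3 (0.46, SE 0.107), LSM1 (0.31, SE 0.0933), PAN2 (-0.40, SE 0.0886) and EXOSC2 (-0.35, SE 0.0959), of which LSM1 lost its call under 6 of 13 alternatives, EDC3 under 3, EXOSC2 under 1 and PAN2 under none. No CCR4-NOT gene was called there, with values between -0.14 and 0.21.

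Genes around the set were read for comparison. Of 65 other decay genes 7 were higher and 19 lower with UPF1 siRNA in R1881, and 9 were higher and 19 lower in vehicle (median log2 -0.19 and -0.06). The shares were 10.8% and 29.2% in R1881, beside 17.6% and 15.7% of all genes, and 13.8% and 29.2% in vehicle, beside 18.5% and 16%. The GC offset and the fit without replicates 1 and 2 of UPF1 siRNA in R1881 were read for members alone. For this list, the S phase and mitosis genes and the nonsense-mediated decay factors, the part of library composition was therefore not tested. CPEB3, an mRNA-binding protein that recruits TOB and CCR4-NOT, had 78.2, 86.1 and 103 CPM with UPF1 siRNA and R1881, against 46.8, 62.3 and 61.1 CPM with control siRNA and R1881 (log2 0.65, SE 0.128, adjusted p = 0.0011). In vehicle it had 30.2, 35.3 and 30.2 CPM with UPF1 siRNA, against 12.7, 11.0 and 13.6 CPM with control siRNA (log2 1.36, SE 0.136, adjusted p = 1.7e-06). NUDT3, which can act on mRNA caps, was lower by a wide margin (-1.49 in R1881, SE 0.115; -1.57 in vehicle, SE 0.116), but 43.3% of its exons are shared with a readthrough gene on the same strand and 71.6% with a gene on the opposite strand, so the assignment of its reads is uncertain.

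Of the 9 nonsense-mediated decay factors other than UPF1, 4 (44.4%) rose and 1 (11.1%) fell with UPF1 siRNA in R1881, beside 17.6% and 15.7% of all genes. In vehicle 5 (55.6%) rose and 1 (11.1%) fell, beside 18.5% and 16% (median log2 0.29 in R1881 and 0.82 in vehicle). UPF3A (0.64 and 0.84), SMG5 (0.49 and 0.66) and SMG9 (0.90 and 0.94) rose in both treatments, and SMG8 fell in both (-0.75 and -0.89). PNRC2 and STAU1 also rose, at 0.61 and 0.35 in R1881 and 0.94 and 0.39 in vehicle, while SLBP fell in vehicle. A link between these members and the nonsense-mediated decay factors was not tested.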

How the data were processed

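RNA from LNCaP cells was made into ribosomal-RNA-depleted libraries from 500 ng of total RNA, per the labels' protocols. Per the submitters' processing notes, bcl2fastq 2.20, STAR 2.7.9a, featureCounts of Subread 1.6.4 and build GRCh38.p7 were used; which annotation and strand setting were applied is not stated in the labels. The deposited values are raw counts per gene and library, 10299607 to 17338235 in total. The labels call the replicates biological triplicates, and p-values measure the spread between these samples. No replicate pair agreed within sampling noise (chi-square per degree of freedom 2.81 to 42.5).

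Counts were filtered by expression per group (filterByExpr, minimum count 10), scaled by TMM and fitted over all 6 groups with edgeR 4.0.16 (quasi-likelihood F test, R 4.3.3, limma 3.58.1). Contrasts were tested with Benjamini-Hochberg adjustment over 15390 genes and called at an adjusted p below 0.05. Standard errors come from the fold change and its F value, and 95% intervals from the t distribution of the same fit. CPM use TMM scaling, exon lengths and GC content come from GENCODE 29 on GRCh38, and promoters from RefSeq. Alternatives were DESeq2 1.42.0, other scalings and filters, a GC offset per library, and leaving out libraries.

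The members and the lists of other genes were chosen with earlier results of these data known. Library values are given for members called at a log2 fold change of 0.5 or more in size with UPF1 siRNA, with R1881 under control siRNA, in an interaction or between the pools, and for STAU1, SLBP and PNRC2. Between the pools, some of these members are only named or have their difference alone. Other decay genes are named where called in the same direction at that size in both treatments.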

Additional observations from a re-analysis of the deposited data

Results flagged for a closer look

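The R1881 response of DIS3L differed between siRNA arms. The response with RCOR1 siRNA was 0.57 log2 units above that with control siRNA (SE 0.109, adjusted p = 0.021 over all genes), and DIS3L levels in R1881 were higher in 3 of 3 RCOR1 siRNA libraries than in any control siRNA library. Without the low-count filter, in a fit of the 4 groups alone and without each of 6 libraries in turn, the difference kept its direction and lost its call (0.53 to 0.62, highest adjusted p = 0.29).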

How the results depend on the processing

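No paired analysis was possible because the labels give the libraries no replicate numbers; the numbers used here follow the order of listing and name libraries without pairing them. Of 119 called member values, the direction and the call were kept for 106 with DESeq2's size factors, 95 with library size alone, 103 with DESeq2, 71 without the low-count filter, 109 with at least 50 counts in 3 libraries, 83 with the groups of the contrast alone and 103 with the GC offset; 533 of 720 held with a library left out, and 19 of 55 without UPF1 siRNA, R1881 replicates 1 and 2. Apart from 5 values under the GC offset, the rest kept their direction: CNOT2 turned to 0.12 (UPF1 against control siRNA, R1881), 0.26 (UPF1 against RCOR1 siRNA, R1881) and 0.35 (R1881 with UPF1 siRNA), and DCP1B to 0.13 (UPF1 against RCOR1 siRNA, R1881) and 0.04 (R1881 with UPF1 siRNA); the cause was not tested.

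Counts of called members that moved by over 1.5 times were as follows, against the reported count. For UPF1 against control siRNA in R1881 (15), the 2 groups alone gave 9, and replicate 3 alone gave fewer too. Both fits held fewer libraries, and the part of that in the counts was not tested. In vehicle (16), the groups alone gave 10. For RCOR1 against control siRNA in R1881 (7), the GC offset gave 12, no filter 2 and the groups alone 2. In vehicle (4), the GC offset gave 10, at least 50 counts 2, library size 1, no filter 1 and the groups alone 0. For UPF1 against RCOR1 siRNA in R1881 (21), replicate 3 alone gave 7. For R1881 against vehicle, library size gave 20 with control siRNA (11), replicate 3 alone gave 7 with UPF1 siRNA (19), and the GC offset gave 12 with RCOR1 siRNA (7). The UPF1 siRNA interaction (0) had 2 calls under library size, no filter or the GC offset, and 1 with at least 50 counts. The RCOR1 siRNA interaction (1) had 2 under the GC offset and 0 without the filter or with the groups alone.

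With each library left out in turn, calls ranged between 8 and 16 for UPF1 against control siRNA in R1881 (9 without UPF1 replicate 1, 8 without replicate 2) and 11 and 13 in vehicle. They ranged between 3 and 6 for RCOR1 against control siRNA in R1881, 1 and 5 in vehicle, 15 and 21 for UPF1 against RCOR1 siRNA in R1881, and 10 and 15 in vehicle. For R1881 they ranged between 10 and 12 with control siRNA, 13 and 21 with UPF1 siRNA and 6 and 8 with RCOR1 siRNA, and for the interactions between 0 and 3 with UPF1 siRNA and 0 and 1 with RCOR1 siRNA.

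The 3 libraries per group limit what small changes can be called. The uncalled values of XRN1, DCP2 and CNOT6L have wide intervals and do not show that these genes were unchanged.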
